A study of Mus musculus with 8 samples.

Results

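The transcripts of 9 genes for ADAM proteins of the sperm surface were followed in mouse testis: Adam1a, Adam1b, Adam2, Adam3, Adam5, Adam18, Adam24, Adam29 and Adam32. The genes were chosen by name, and every probe set that the array annotation gives to 1 of them alone was used. A probe set is a group of short array probes read together as 1 value. Probe sets were found for 8 of the 9 genes, 12 of the 45101 on the array, with 5 for Adam1a and 1 for each of the others. No probe set carried the name Adam29, which is not analysed here. The study asked which transcripts change in testis without CTCFL, a germ cell paralog of the zinc finger protein CTCF. Testis RNA taken on postnatal day 23 was read on 8 Affymetrix Mouse430_2 arrays. Those of wildtype testis are replicates 1, 2, 4, 6 and 7 (n = 5) and those of Ctcfl mutant testis replicates 3, 5 and 8 (n = 3). The mutants were Ctcfl del/del, an allele without exons 1 to 8 and with a GFP coding sequence in frame. The locus was targeted in mouse ES cells, the deletion was then made in mice by a cross to Cre mice (actin promoter), and the line was kept on a C57/Bl6 background. By the text of the study the controls were heterozygous Ctcfl del/+ littermates, whereas the sample labels give wildtype, the term kept here.

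ADAM proteins are membrane proteins with a metalloprotease and a disintegrin domain, and many of those made in male germ cells lack the residues needed for proteolysis. ADAM1B and ADAM2 form the pair known as fertilin on the sperm head, while ADAM1A pairs with ADAM2 inside the endoplasmic reticulum of developing germ cells, a step that ADAM3 needs to reach the sperm surface. ADAM3, or cyritestin, is required for sperm to pass from the uterus into the oviduct and to bind the egg coat. ADAM5, ADAM18 and ADAM32 are further testis ADAM proteins, and ADAM24, or testase 1, keeps the residues of an active protease. Transcripts of this family appear in spermatocytes and spermatids, and day 23 is an age at which the first wave of germ cells has reached the round spermatid stage.

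Adam1b and Adam1a lie next to each other on chromosome 5, followed by Mapkapk5. Adam18, Adam3, Adam5, Adam32 and the widely expressed Adam9 follow one another on chromosome 8, where Adam24 sits beside Adam25, and Adam2 is on chromosome 14 (gene order from RefSeq, GRCm38.p6). The upstream sequences of Adam1a and Adam1b are shown because these neighbours code for the alternative partners of ADAM2. Across the arrays, 2 of the 5 Adam1a probe sets had a wide range, as described further on. The others, which were dimmer, and the dim probe set of Adam1b did not. Each line gives the 250 bases before the annotated start, on the gene's own strand, from RefSeq (GRCm38.p6). The position is chr5:121521696-121521945 (minus strand) for Adam1a and chr5:121503436-121503685 (minus strand) for Adam1b. Capitals mark the longest unbroken run of TG or CG steps in Adam1a, a feature picked out after the sequence was read.
Adam1a: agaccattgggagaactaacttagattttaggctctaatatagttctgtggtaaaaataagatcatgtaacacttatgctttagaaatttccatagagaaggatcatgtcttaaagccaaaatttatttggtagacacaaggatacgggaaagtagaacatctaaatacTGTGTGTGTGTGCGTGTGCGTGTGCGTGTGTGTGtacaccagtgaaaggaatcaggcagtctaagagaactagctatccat
Adam1b: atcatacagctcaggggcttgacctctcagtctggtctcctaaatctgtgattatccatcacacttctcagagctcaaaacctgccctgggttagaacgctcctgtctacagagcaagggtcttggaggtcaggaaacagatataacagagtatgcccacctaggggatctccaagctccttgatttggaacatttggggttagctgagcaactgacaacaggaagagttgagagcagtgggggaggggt
The run in Adam1a was 34 bases long, from 81 to 48 bases before the start, and 5 of 32851 promoters (0.02%) held one at least as long on the same strand. The longest such run in Adam1b had 4 bases. GC content was 38.0% for Adam1a and 50.0% for Adam1b, against a median of 52.4% over all promoters. The Adam1a and Adam1b windows shared 125 identical bases in a gapped alignment of 263 columns (47.5%). Unrelated promoters were not aligned, so this share cannot be read as likeness. Both strands were searched for TGACGTCA, the site of the CREM and CREB factors (in 1.55% of all promoters), for TATAAA (12.37%) and for AGGNGGCAG, a core of the CTCF consensus (3.03%). None of these letters occurred in the Adam1a or Adam1b window, and Adam29 held a TATAAA from 219 to 214 bases before its start. The table used gave no window for the other 6 genes.

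Levels are given on the log2 scale after RMA, the method by which the authors corrected background, normalised and summarised the probes, so that a difference of 1 is a doubling. The array medians lay between 6.40 and 6.45. Wildtype replicate 7 and mutant replicate 8 are known from earlier results of these data to stand apart from the other 6 arrays, so values that move with them are also given on the other 6 or with a block term that takes out what both share. No label names this pair, which was defined from expression values. The transcript of Ctcfl was not used here, and no other check of the genotype of an array was made. The labels do not say that samples came from separate animals, and p-values then measure only the spread between these samples, which may be technical. In bulk testis RNA, fewer cells of a type and less RNA per cell cannot be told apart.

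Adam1a, which codes for the partner of ADAM2 in the endoplasmic reticulum, had among the widest ranges of the listed genes. Its main probe set (1427790_at, chosen as an ID without a cross-hybridisation suffix and then by the highest mean level) read 9.46, 9.64, 9.65, 9.73 and 10.30 in wildtype replicates 1, 2, 4, 6 and 7, and 9.01, 9.52 and 10.33 in mutant replicates 3, 5 and 8. Wildtype 7 and mutant 8 were the highest, 0.026 apart, and the other 6 arrays lay between 9.01 and 9.73. The groups overlapped, and the mean was 9.76 ± 0.32 (SD, n = 5) for wildtype against 9.62 ± 0.66 (SD, n = 3) for mutant testis. The difference of -0.14 (SE 0.27, 95% interval -0.74 to 0.47) was smaller than the SD within either group (adjusted p = 1.0, limma with Benjamini-Hochberg adjustment over all probe sets; two-sided exact permutation p = 0.75). The range over the 8 arrays was 1.32, or 2.49-fold, wider than in 98.2% of all probe sets.

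The other probe sets of Adam1a varied to different degrees. Probe set 1443378_s_at followed the main one, with 8.92 to 9.24 in wildtype 1, 2, 4 and 6, 9.89 in wildtype 7, and 8.56, 8.99 and 9.84 in mutants 3, 5 and 8 (difference -0.16, SE 0.28). Wildtype 7 and mutant 8 were again the highest arrays, and after each probe set was centred on its own mean the main one and this one differed by a root mean square of 0.041. The remaining Adam1a probe sets ranged over 0.50 (1427791_a_at), 0.37 (1443377_at) and 0.39 (1458197_x_at), with differences between -0.20 and -0.12. In 1443377_at wildtype 7 read 6.74 and mutant 8 read 6.82, inside the span of 6.56 to 6.93 over all arrays. The probe sets of Adam1a therefore disagreed on how far these arrays stood apart, but the narrow ones were also the dimmer ones. Probe set 1427791_a_at read 4.86 to 5.36, under the array medians. Probe sets 1443377_at and 1458197_x_at (6.71 to 7.10) lay a little above the medians. Whether low signal narrowed these ranges was not tested.

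Adam1b, which codes for the fertilin subunit of mature sperm, was measured alone only by probe set 1454317_at. It read 5.56, 5.17, 5.38, 5.39 and 5.17 in wildtype 1, 2, 4, 6 and 7, and 5.35, 5.09 and 5.25 in mutants 3, 5 and 8, all under the array medians. Wildtype 7 and mutant 8 lay inside the span of the others and the groups overlapped (difference -0.10, SE 0.10, 95% interval -0.34 to 0.13). A pair of further probe sets carries the names of Adam1b and a second locus, LOC100047841, so their signal cannot be given to Adam1b alone. The first (1432657_at) stayed between 10.86 and 11.01 on all arrays, a range of 0.15, with wildtype 7 and mutant 8 the lowest, and differed by 0.0081 (SE 0.065) between genotypes. The second (1439700_at) lay between 7.58 and 7.96 and differed by -0.092 (SE 0.090). On none of these 3 probe sets did wildtype 7 and mutant 8 read highest.

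Adam2, which codes for the common partner of ADAM1A and ADAM1B, was nearly level over the arrays. It read 13.05, 13.10, 13.09, 13.15 and 13.16 in wildtype 1, 2, 4, 6 and 7, and 12.98, 13.12 and 13.14 in mutants 3, 5 and 8. Mutant 3 was lowest and wildtype 7 highest, a range of 0.18, and the groups overlapped, with 13.11 ± 0.045 (SD, n = 5) against 13.08 ± 0.086 (SD, n = 3). The difference was -0.030 (SE 0.065, 95% interval -0.18 to 0.12). Among the 823 probe sets with a mean level above 12 the median range was 0.196, against 0.377 over all probe sets, so a narrow range was common at this height of signal.

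Adam3, whose protein is required for passage into the oviduct, varied little. It read 12.13, 12.17, 12.17, 12.19 and 12.41 in wildtype 1, 2, 4, 6 and 7, and 12.08, 12.29 and 12.17 in mutants 3, 5 and 8. Wildtype 7 was the highest and mutant 3 the lowest, while mutant 8 lay among the other arrays, and the groups overlapped (12.22 ± 0.11, SD, n = 5 against 12.18 ± 0.11, SD, n = 3). The difference was -0.035 (SE 0.083, 95% interval -0.22 to 0.15), and it was 0.016 on the 6 arrays without wildtype 7 and mutant 8.

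Adam5, the next gene after Adam3 on chromosome 8, was the only one of the 12 probe sets whose groups did not overlap, where 2.7% of all 45101 probe sets had groups without overlap. It read 12.68, 12.68, 12.71, 12.67 and 12.84 in wildtype 1, 2, 4, 6 and 7, and 12.62, 12.67 and 12.63 in mutants 3, 5 and 8. The highest mutant array and the lowest wildtype array agreed to 2 decimals, with 12.6692 against 12.6732. The difference was -0.079 (SE 0.065, 95% interval -0.22 to 0.066) and did not pass the test (adjusted p = 1.0, limma). The exact permutation p of 0.0357 is the smallest that 56 splits of 8 arrays allow, without adjustment. On the other 6 arrays the difference was -0.043.

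Adam18 and Adam32, at either end of the same gene cluster, were level as well. Adam18 lay between 10.64 and 10.78 in wildtype and between 10.61 and 10.71 in mutant testis, with overlap, and differed by -0.030 (SE 0.063, 95% interval -0.17 to 0.11). Adam32 lay between 12.13 and 12.23 in wildtype and read 12.19, 12.21 and 12.20 in mutants 3, 5 and 8, a difference of -0.0014 (SE 0.058, 95% interval -0.13 to 0.13). Its range of 0.097 was wider than that of only 0.4% of probe sets.

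Adam24, the testase with protease residues, had the widest range. It read 8.09, 8.39, 8.01, 8.22 and 9.02 in wildtype 1, 2, 4, 6 and 7, and 7.63, 8.02 and 8.78 in mutants 3, 5 and 8. As for Adam1a, wildtype 7 and mutant 8 were the highest arrays and the other 6 lay between 7.63 and 8.39. The range of 1.39, or 2.62-fold, was wider than in 98.4% of probe sets. The groups overlapped, at 8.34 ± 0.40 (SD, n = 5) for wildtype against 8.14 ± 0.59 (SD, n = 3) for mutant testis. The difference of -0.20 (SE 0.28, 95% interval -0.82 to 0.42) was smaller than either SD (adjusted p = 1.0, limma; two-sided exact permutation p = 0.607).

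**Figure D1:**
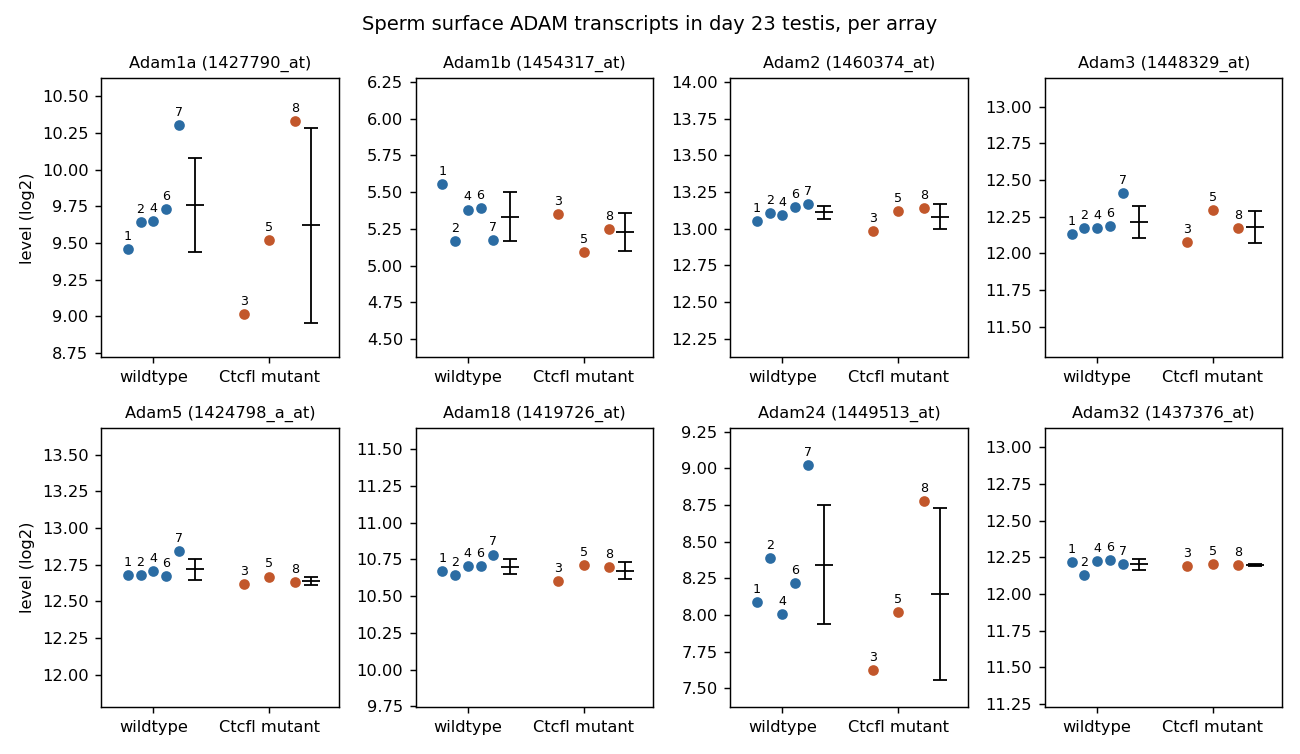
Log2 level of the main probe set of each measured gene on each array, 1 panel per gene with the same span of levels. Points are arrays with their replicate number (5 wildtype in blue, 3 Ctcfl mutant in orange) and the bars give the mean ± SD. Replicates 7 and 8 stand above the rest for Adam1a and Adam24, with 10.30 and 10.33 and with 9.02 and 8.78, whereas the points of Adam2, Adam18 and Adam32 lie nearly level.

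The genotype comparison gave no probe set past the threshold. Of the 12 probe sets, 0 had an adjusted p under 0.05 in limma, the same as the share of 0% over all 45101. At an unadjusted p under 0.05 the count was 0 of 12 as well, where 3.47% of all probe sets passed, and a one-way comparison without shared variance also gave 0. All 12 differences were below 0, from -0.20 to -0.0014, with a median of -0.11, and 5 of the 12 belong to Adam1a. The 8 main probe sets, 1 per gene, were all below 0, with a median of -0.057. Over all probe sets 48.5% were below 0, with a median of 0.0032. Among those with a mean level above 12, as for Adam2, Adam3, Adam5 and Adam32, 56.9% were below 0, with a median of -0.010. Mutant 3 was the lowest array for 8 of the 12 probe sets (12.2% of all probe sets) and wildtype 7 the highest for 7 of the 12 (12.1% of all). Without mutant 3 the median difference was 0.0024, so the sign of the median rested on that library.

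The genotype result moved most for Adam1a and Adam24 when wildtype 7 and mutant 8 were set aside. On the other 6 arrays, with 4 wildtype against 2 mutant, the main Adam1a probe set differed by -0.36 (SE 0.14; unadjusted p = 0.0291 and adjusted p = 0.757, limma). Adam24 differed by -0.35 (SE 0.14; unadjusted p = 0.0288 and adjusted p = 0.756, limma). In both genes mutant 3 was below all wildtype arrays and mutant 5 among them. The count at an unadjusted p under 0.05 was 5 of 12, from 4 probe sets of Adam1a and from Adam24, where 6.55% of all probe sets passed. With all 8 arrays and the pair as a block it was 3 of 12, from Adam24 (-0.32, SE 0.11) and a pair of Adam1a probe sets (1427791_a_at and 1443378_s_at), where 5.86% of all passed. Both counts come from Adam1a and Adam24 alone, and both include 1427791_a_at, which read under the array medians. No member had an adjusted p under 0.751 in any alternative.

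**Figure D2:**
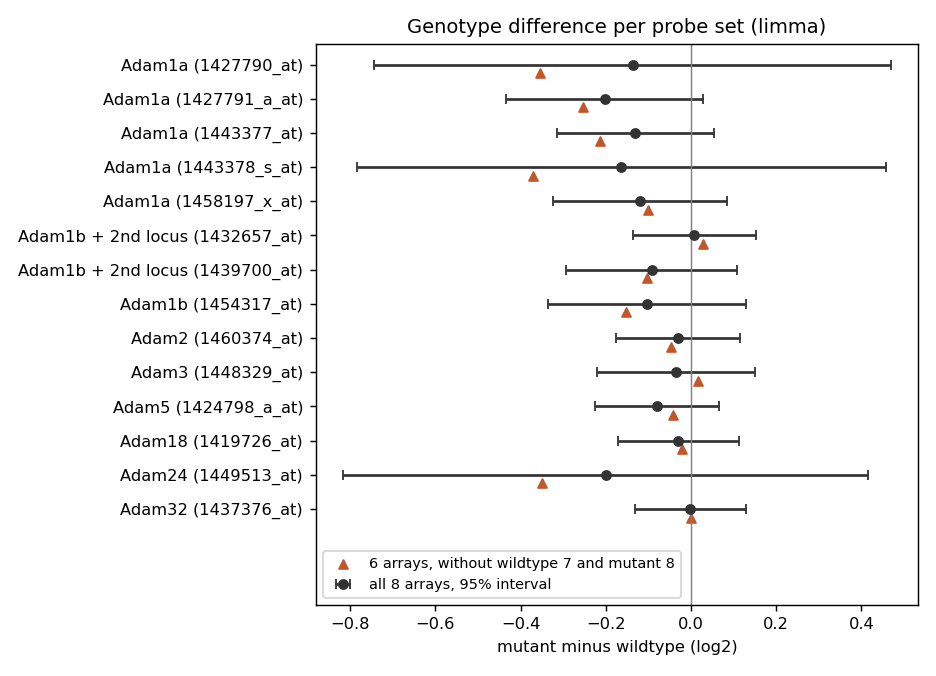
Mutant minus wildtype difference of the log2 level for every probe set, with black points and 95% intervals from limma on all 8 arrays and orange triangles on the 6 arrays without wildtype 7 and mutant 8. All black intervals include 0, and the triangles of Adam1a (1427790_at) and Adam24 lie at -0.36 and -0.35.

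Wildtype 7 and mutant 8 were the highest arrays for 3 of the 12 probe sets, both wide Adam1a ones and Adam24, against 8.6% of all probe sets. These arrays were also highest for 11 of 12 spermatid markers such as protamines and transition proteins. The mean level of the 12 spermatid markers was 10.44 in wildtype 7 and 10.04 in mutant 8, and 8.06 to 8.75 on the other arrays. Their summed level ranged from 98.3 to 125.3 in wildtype and from 96.8 to 120.5 in mutant testis. The spermatocyte markers moved less, with a mean of 11.44 in wildtype 7, the highest array, and 11.18 in mutant 8, and 11.00 to 11.30 on the others, and 1 of 7 was highest in this pair.

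Other measures moved with the same arrays. A list of fat markers, of which 4 of 5 had a probe set, averaged 8.04 in wildtype 7 and 8.03 in mutant 8 and 5.52 to 6.47 elsewhere. Of these markers 3 were highest in this pair (8.6% of all probe sets), while Fabp4 stayed between 4.5 and 4.8, under the array medians. The excess of the 3' over the 5' control probe set for Gapdh (log2), a sign of RNA integrity, was 0.31 and 0.33 on these arrays and 0.041 to 0.22 on the others. The same measure for beta-actin was 1.13 in wildtype 7 but 1.03 in mutant 8, inside the span of 0.747 to 1.03 of the other arrays. The part of spermatid RNA, fat RNA or RNA integrity in the Adam1a and Adam24 levels was not tested. Adam2, Adam18 and Adam32 had ranges of 0.18, 0.18 and 0.097, and their relation to these measures was not tested either. The median range was 0.196 for probe sets with a mean level above 12, as for Adam2 and Adam32 but not Adam18.

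**Figure D3:**
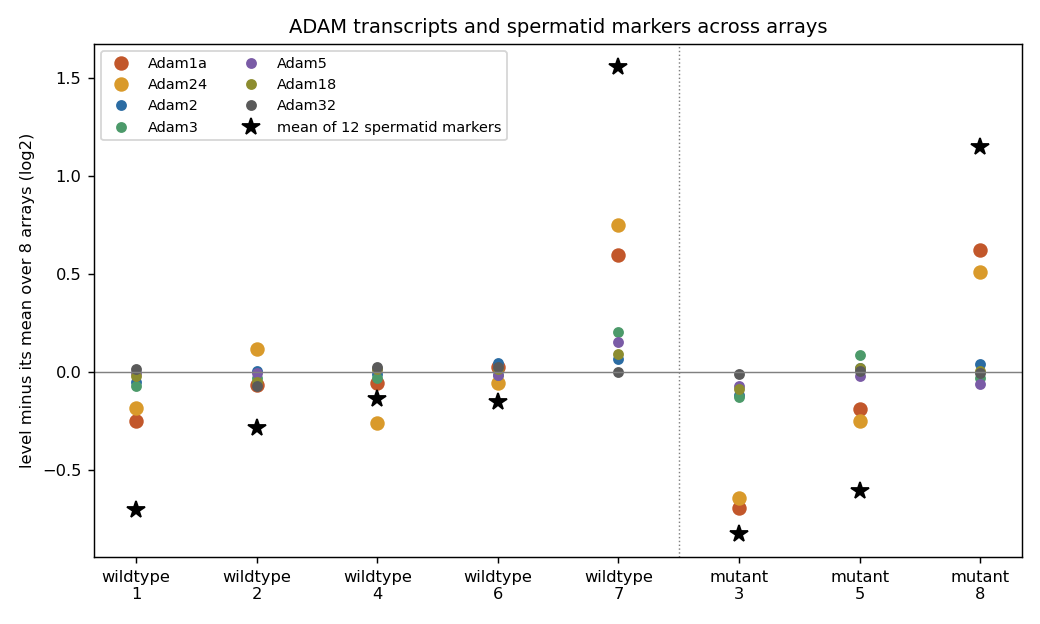
Log2 level on each array minus the mean over all 8, for the main probe sets of 7 genes (coloured points) and for the mean of 12 spermatid markers (stars), with wildtype left and mutant right of the dotted line. Adam1b, whose main probe set read under the array medians, is left out. Adam1a, Adam24 and the stars are highest in wildtype 7 and mutant 8, and the points of Adam2, Adam5, Adam18 and Adam32 stay near 0.

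None of the gene lists for the surroundings of the sperm surface ADAM proteins had a member past an adjusted p of 0.05 in limma. The first list holds genes that ADAM3 needs for its folding, its transport or its place on sperm, 11 of 12 with a probe set (Pmis2 had none). Of these, 3 differences were above 0 and 8 below, with a median of -0.066. At an unadjusted p under 0.05, passed by 3.47% of all probe sets, the list had 1 of 11 genes, Ly6k (-0.16, SE 0.068). The 3 genes of the highest level were Cmtm2b (0.091, SE 0.061), Cmtm2a (-0.069, SE 0.080) and Tex101, which codes for a germ cell surface glycoprotein (-0.066, SE 0.092). Within the list 4 genes were highest in wildtype 7 and mutant 8, against 8.6% of all probe sets. Calr3, a calreticulin of the germ cell endoplasmic reticulum, had the widest range of the list on its main probe set, 1 of 3. It read 7.90 in wildtype 7 and 7.18 in mutant 8, against 4.67 to 5.47, under the array medians, on the other arrays. Clgn, which codes for the chaperone calmegin, was lowest in wildtype 7 and mutant 8, at 11.22 and 11.15 against 11.40 to 11.68. Ly6k, Calr3 and Clgn were picked after their values were seen.

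Genes of sperm and egg contact gave 11 of 12 with a probe set (Tmem95 had none), 3 above and 8 below 0, with a median difference of -0.059 and 0 at an unadjusted p under 0.05. Without wildtype 7 and mutant 8 the median was -0.24, and -0.17 with the block. The 3 of the highest level were Zpbp2 (0.10, SE 0.066) and Zpbp (0.040, SE 0.11), which code for acrosomal proteins, and Llcfc1 (-0.046, SE 0.30). In 9 of the 11, wildtype 7 and mutant 8 were the highest arrays, against 8.6% of all probe sets. Izumo1, the sperm ligand of the egg receptor Juno, read 9.71 and 9.61 there and 7.71 to 8.52 elsewhere, and Spam1, a sperm hyaluronidase, read 8.96 and 8.67 against 7.17 to 8.18. Izumo1 and Spam1 were named after their values were seen.

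Most further ADAM genes of the male reproductive tract had the same highest arrays as Adam1a and Adam24. Of 11 listed, 6 had a probe set, with 2 differences above and 4 below 0, a median of -0.076 and 0 at an unadjusted p under 0.05. The median was -0.22 without wildtype 7 and mutant 8 and -0.18 with the block. In 5 of the 6 wildtype 7 and mutant 8 were highest, against 8.6% of all probe sets. Adam26a (-0.093, SE 0.27) and Adam21 (-0.16, SE 0.18) were among them, while Adam4 (-0.061, SE 0.089) ranged over 0.39. Adam6a, named after its values were seen, read 8.45 and 8.06 on these arrays and 5.96 to 6.64 on the others. Of the 13 broadly expressed ADAM genes 12 had a probe set, 5 above and 7 below 0, with a median of -0.013 (-0.038 on the 6 arrays) and 0 at an unadjusted p under 0.05. The sheddases Adam10 (0.032, SE 0.11) and Adam17 (-0.025, SE 0.081) and Adam9 (-0.0016, SE 0.14) had the highest levels. In 0 of these 12 were wildtype 7 and mutant 8 the highest arrays, which is near the share of 8.6% over all probe sets.

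**Figure D4:**
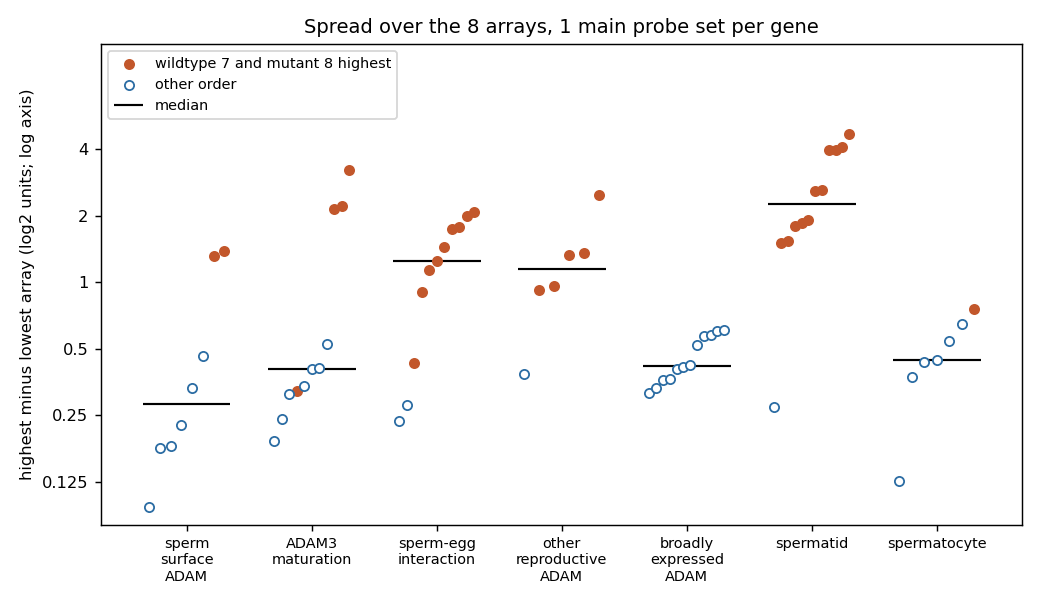
Range of the log2 level over 8 arrays (vertical log axis, log2 units) for the main probe set of each gene in 7 lists, with filled points where wildtype 7 and mutant 8 were the highest arrays and a line at the median of each list. The median range was 0.28 for the sperm surface ADAM genes, 0.42 for the broadly expressed ADAM genes, 1.15 for the other reproductive ADAM genes and 2.25 for the spermatid markers. The lists differ in level, and ranges were narrower at high level. The median range was 0.196 for probe sets with a mean level above 12, as for Adam2, Adam3, Adam5 and Adam32, and 0.377 over all.

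Markers of the remaining testis cell types were also set beside these levels. Median differences were 0.095 over 6 spermatogonia genes, 0.097 over 7 Sertoli genes, 0.14 over 5 Leydig genes, 0.048 over 4 peritubular genes, 0.020 over 4 macrophage genes and 0.086 over 5 epididymis genes, and -0.17 over 7 spermatocyte and -0.14 over 12 spermatid genes. On the 6 arrays without wildtype 7 and mutant 8 the medians were 0.17 for spermatogonia, 0.15 for Sertoli, 0.32 for Leydig, 0.070 for peritubular and 0.13 for macrophage genes, and -0.18 for spermatocyte and -0.37 for spermatid genes. The epididymis median turned sign to -0.26. Over all probe sets the median on these 6 arrays was -0.0024. Some list medians include main probe sets that read under the array medians on every array. Examples are Acta2 (4.19 to 4.48) among the peritubular and Oaz3 (5.13 to 5.40) among the spermatid genes. None of the markers passed an adjusted p of 0.05 in limma on all 8 arrays. At an unadjusted p under 0.05 in limma, 1 spermatocyte gene was lower in mutant testis. Higher there were 2 spermatogonia, 1 Sertoli, 1 Leydig and 1 epididymis genes, where 3.47% of all probe sets passed in either direction. Among the higher genes, Gfra1 of the spermatogonia list (4.87 to 5.51) and Lcn5 of the epididymis list (4.96 to 5.40) read under the array medians. Gfra1 and Lcn5 were named after their values were seen. The part of germ cell content in the differences of the ADAM transcripts was not tested.

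The genes nearest in pattern were found for the 3 genes of the widest range, by the root mean square difference of centred levels over the 8 arrays. Adam24 was followed most closely by Mroh9 (0.079), 1700029J07Rik (0.081) and Stambpl1 (0.086). Nearest to Adam1a were Krt88 (0.041), 1700067P10Rik (0.044) and 1700011L22Rik (0.050). For Adam1b they were Zfp689 (0.027), Anpep (0.046) and Atg4d (0.054). These genes were picked for their likeness on the same arrays, so shared high and low arrays follow from the choice. Krt88, for example, read 10.18 and 10.16 in wildtype 7 and mutant 8 and 8.97 in mutant 3. Zfp689 read 5.42 in wildtype 1, its highest array, and it stayed under the array medians on all arrays, as did Adam1b.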

How the data were processed

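RNA from testis was measured on 8 Mouse430_2 arrays, grouped by the sample titles. According to the methods of the study, the authors used Affymetrix software with quantile normalization, RMA background correction and limma. The deposited table gives log2 levels, with 1 column for each array. Its columns of group means, differences and p-values, and the other deposited tables, hold the authors' own comparison and were not used. A genome build for the array annotation is not given in the sources used here.

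The log2 levels were used as deposited and unfiltered. All 45101 probe sets, 64 of them controls, entered limma 3.58.1 under R 4.3.3 (lmFit, then eBayes), and two-sided p-values were adjusted by Benjamini-Hochberg, with 95% intervals. Single genes were also compared by an exact permutation test of the 8 arrays (Python 3.11.15, numpy 2.4.6, pandas 2.3.3, scipy 1.17.1, figures with matplotlib 3.10.9). The limma step was also run on simulated data, a check made before its results were summarised. No 2 arrays held identical values. Gene names came from the Symbol column, and positions from RefSeq tables (GRCm38.p6), in which 33571 of 36858 probe sets with 1 Entrez ID were found. A further 1796 probe sets name several genes.

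The members and gene lists were chosen with earlier results of these data known. All members are named. From each gene list the 3 genes with the highest mean level of the main probe set are named, and other named genes are said to be chosen after their values were seen. Alternatives were leaving out each array, wildtype 7 with mutant 8 as a block or left out, probe sets above the median level, median centring, an intensity trend with a robust prior, array weights, no shared variance, an offset of 64 on the linear scale, an adjusted p under 0.1 and other probe sets of a gene. The number of arrays limits the precision.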

Additional observations from a re-analysis of the deposited data

Results flagged for a closer look

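Within the 5 wildtype arrays, 1 array lay far from the other 4 by Dixon's criterion in 12 of 39 sets of values. Chance gives about 1 in 20 for independent sets, but these sets overlap, since genes and the means of their lists are both among them. Wildtype 7 was also known beforehand to stand apart, so the count is not a test against chance. Adam3 was 12.41 in wildtype 7, with the nearest other array at 12.19, and Adam5 was 12.84 in wildtype 7, with the nearest at 12.71. Adam32 was low in wildtype 2, at 12.13, with the nearest at 12.20. Among genes of the lists, wildtype 7 was high for Llcfc1 (10.11, nearest 9.37), Adam26a (8.22, nearest 7.66) and Adam21 (7.69, nearest 7.26), and wildtype 1 was high for Adam17 (8.89, nearest 8.77). Among mean levels of lists, wildtype 7 was high for the ADAM3 maturation genes (10.49, nearest 10.04), the other reproductive ADAM genes (7.57, nearest 6.89), the spermatid markers (10.44, nearest 8.75) and the Leydig markers (9.26, nearest 8.90). Wildtype 1 was high for the mean of the epididymis markers (5.79, nearest 5.29), where Crisp1 read 5.82 against 3.17 to 3.29 in the other wildtype arrays. Over all 8 arrays Crisp1 ranged over 3.21 and the other markers of that list over 0.36 to 0.74. Mutant 8 was higher still, with a list mean of 5.94 and Crisp1 at 6.38. Adam1a and Adam24 did not meet this criterion, since their values in the other wildtype arrays were also spread out.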

How the results depend on the processing

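The count of sperm surface ADAM probe sets past an adjusted p of 0.05 was 0 in limma under every alternative run, also at 0.1. At an unadjusted p under 0.05 it was 0 with all arrays, 3 with wildtype 7 and mutant 8 as a block (5.86% of all probe sets), 1 with array weights (4.89%), 5 on the 6 arrays without that pair (6.55%), and 0 to 3 when 1 array was left out (3 without mutant replicate 8, with 5.87% of all probe sets, and 1 without wildtype replicate 1, with 3.16%). The median difference lay between -0.13 (without mutant 8) and 0.0024 (without mutant 3) when 1 array was left out and between -0.13 and -0.075 under the other alternatives. With array weights and without wildtype replicate 1, the probe set counted was 1427791_a_at of Adam1a, which read under the array medians. Of 190 refits of the 12 probe sets, 176 were below 0 and 14 were not.

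No difference that turned sign passed an adjusted p of 0.05 in limma, and the cause was not tested. With array weights Adam3 was 0.0030, Adam32 0.0024, Adam17 0.0098 and Adam9 0.060. On the 6 arrays Adam3 was 0.016, Zpbp -0.0021, Adam17 0.054 and Adam9 0.18. With the block Zpbp was -0.0019 and Adam9 0.023, and with the offset of 64 Adam9 was 6.185e-05. The shared probe set 1432657_at in place of the main one gave 0.0081 for Adam1b. With 1 array left out, the range was -0.050 to 0.0032 for Adam18, -0.49 to 0.17 for Adam1a (1427790_at), -0.52 to 0.12 for Adam1a (1443378_s_at), -0.060 to 0.019 for Adam2, -0.52 to 0.057 for Adam24, -0.091 to 0.017 for Adam3, -0.019 to 0.0054 for Adam32 and -0.029 to 0.044 for 1432657_at. It was -0.15 to 0.051 for Tex101, -0.065 to 0.12 for Zpbp, -0.41 to 0.31 for Llcfc1, -0.40 to 0.27 for Adam26a, -0.16 to 0.033 for Adam4, -0.34 to 0.047 for Adam21, -0.041 to 0.17 for Adam10, -0.093 to 0.064 for Adam17 and -0.12 to 0.17 for Adam9. For Adam1a, Adam2 and Adam24 the positive end came without mutant 3 and the lowest without mutant 8. Probe sets 1427791_a_at and 1454317_at were too dim for the fit above the median level. No paired analysis was possible, because the labels number the samples once through both genotypes and do not name litters.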
